A study of Mus musculus with 10 samples.

Results

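A group of 25 genes gave a higher liver signal in DBA/2J (D2) than in C57BL/6J (B6) mice at every week of a feeding series. The genes were chosen by measured values. For each of 18193 genes with a single-symbol probe set, the probe set with the highest mean over the 10 arrays was taken, and a gene was kept where (DBA/2J signal + 16)/(C57BL/6J signal + 16) was 2 or more at each of the 5 weeks. In all, 32 genes met this (0.176% of the 18193), and 7 of them were left out by symbol (Sult3a1, Cyp2c38, Cyp2c39, Cyp3a44, Serpina11, Enho and H2-Ea). The ratio is called the same-week ratio below. It was used for the choice, so the strain difference of the 25 genes is described here and not tested.

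Female DBA/2J and female C57BL/6J mice received a high-fat/high-cholesterol diet, and livers, rinsed in saline, were collected at 0, 1, 4, 12 and 21 weeks. Each strain was represented at each of these times by a pool of equal RNA amounts from 5 mice on 1 Affymetrix Mouse Genome 430 2.0 array. The groups are therefore DBA/2J fed (4 arrays), DBA/2J week 0 (1 array), C57BL/6J fed (4 arrays) and C57BL/6J week 0 (1 array). The spread between single mice is therefore not in these data, the weeks serve as replicates, and time on the diet cannot be told apart from age. The p-values below measure only the spread between these arrays. Array brightness (2% trimmed mean) lay between 56.2 and 89.1, with the week 0 array the dimmest of each strain. The 12 hepatocyte markers measured had a summed signal of 57402 to 64944 in DBA/2J and 56207 to 63822 in C57BL/6J, which overlap. The sums of the other cell type lists overlapped too, but each had a lower median in DBA/2J. This median was 3758 against 8354 in C57BL/6J for macrophage markers and 2460 against 3371 for stellate markers. None of the 25 genes stood on the marker lists of liver cell types.

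DBA/2J and C57BL/6J are long-established inbred strains, each homozygous at nearly every locus, so a pool of mice of 1 strain shares a single genotype. Transcript differences between such strains can come from variants in or near the gene itself or from other loci, and a microarray probe set reads only a short stretch near the end of a transcript. The mouse reference genome is that of C57BL/6J. The 25 genes are of many kinds, among them an aspartic protease, actin regulators, interferon-inducible genes, a receptor kinase, metabolic enzymes and secreted liver proteins. Of the 25, 24 were annotated as coding for a protein and 1, D630033O11Rik, as a long noncoding RNA.

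The promoter windows of Cap1, Corin and Rassf4, the genes that mark the group, and of Ifi202b, which lies beside further members on chromosome 1, are given from RefSeq on build GRCm38.p6. Each window runs from 250 bases before to 50 bases after the annotated start, is written 5′ to 3′ on the gene's strand, and shows the C57BL/6J allele only. The windows lie at chr4:122886027-122886326 (minus strand) for Cap1, chr5:72504491-72504790 (minus strand) for Corin, chr6:116673787-116674086 (minus strand) for Rassf4 and chr1:173982795-173983094 (minus strand) for Ifi202b. Capitals mark matches on either strand to any of 5 motifs, which are spelled out after the sequences.
Cap1: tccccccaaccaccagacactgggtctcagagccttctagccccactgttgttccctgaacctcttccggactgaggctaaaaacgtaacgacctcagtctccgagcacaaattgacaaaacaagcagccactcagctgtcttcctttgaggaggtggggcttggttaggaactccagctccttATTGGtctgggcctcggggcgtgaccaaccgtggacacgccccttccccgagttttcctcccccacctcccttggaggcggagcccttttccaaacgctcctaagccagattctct
Corin: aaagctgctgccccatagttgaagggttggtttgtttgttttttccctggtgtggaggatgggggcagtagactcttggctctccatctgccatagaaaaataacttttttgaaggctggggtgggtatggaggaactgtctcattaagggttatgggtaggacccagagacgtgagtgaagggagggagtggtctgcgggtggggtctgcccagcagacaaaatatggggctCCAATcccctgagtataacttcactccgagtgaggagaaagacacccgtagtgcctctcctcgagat
Rassf4: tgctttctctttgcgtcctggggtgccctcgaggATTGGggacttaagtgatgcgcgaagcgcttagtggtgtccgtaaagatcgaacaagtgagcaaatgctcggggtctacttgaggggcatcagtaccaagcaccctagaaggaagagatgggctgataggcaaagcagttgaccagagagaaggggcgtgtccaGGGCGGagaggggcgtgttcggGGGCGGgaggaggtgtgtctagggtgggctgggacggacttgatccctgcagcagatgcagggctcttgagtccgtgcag
Ifi202b: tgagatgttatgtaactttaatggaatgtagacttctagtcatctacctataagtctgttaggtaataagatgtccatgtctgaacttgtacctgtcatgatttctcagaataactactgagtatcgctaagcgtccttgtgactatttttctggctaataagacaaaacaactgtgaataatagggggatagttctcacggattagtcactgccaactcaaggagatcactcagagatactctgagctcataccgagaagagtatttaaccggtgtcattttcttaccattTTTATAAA

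Of the 25 genes, 22 had a promoter in the table, and the first listed window of each gene was searched. CCAAT was found in 9 of the 22 (40.9%), among them Cap1, Corin and Rassf4, against 37.9% of all 27025 genes' windows. GGGCGG was found in 10 (45.5%), against 35.9% of all, and TATAAA in 3 (13.6%), against 14.2%. In the Ifi202b window the capitals cover TATAAA on both strands, and these matches overlap. CACGTG was found in 3 (13.6%, against 7.24%) and CAAAGTCCA in 0 (against 0.477%). The median share of G and C was 55.3% in the 22 windows and 52.7% in all. These counts are descriptions of the letters in a short window, made on few genes.

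**Figure D1:**
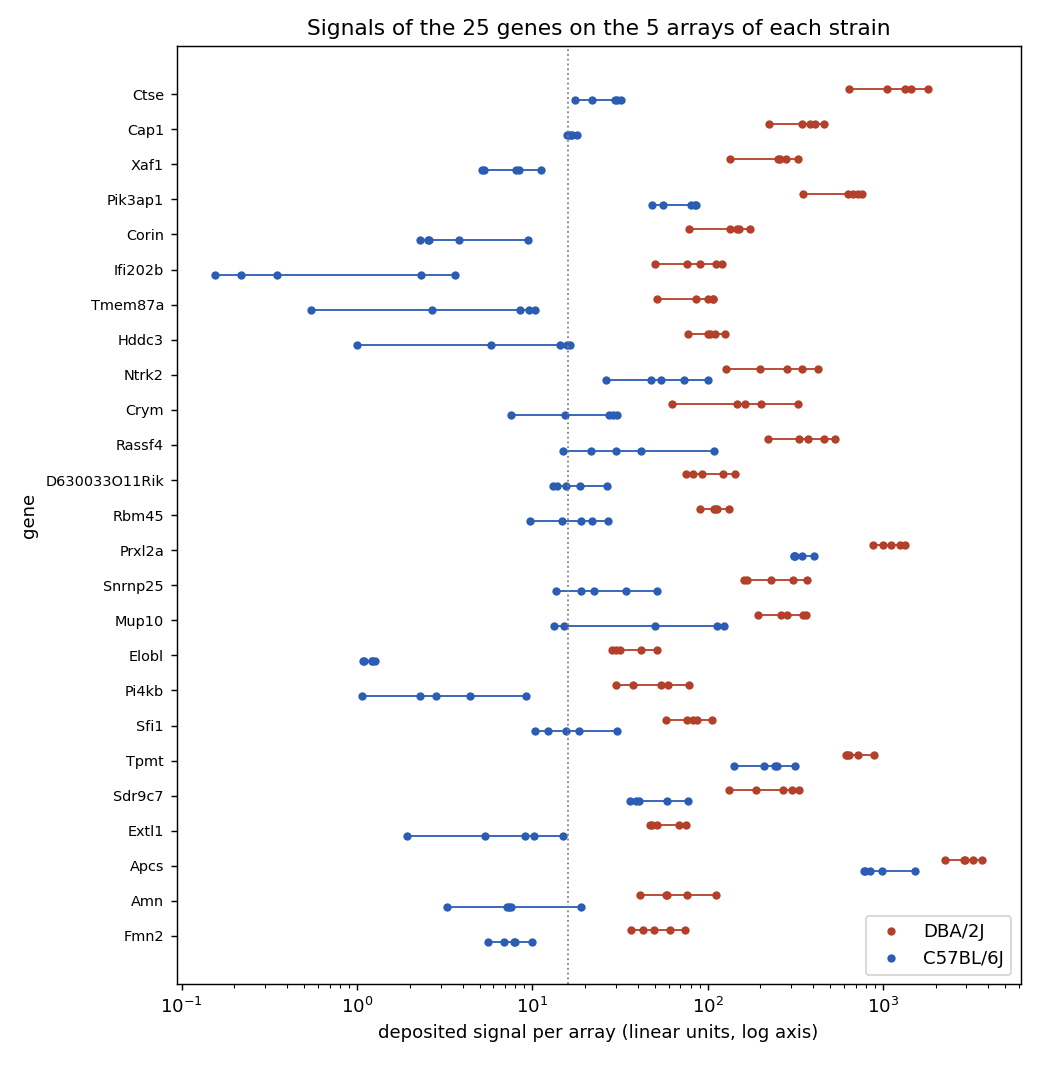
Deposited signal (linear units on a log axis) of each of the 25 genes on the 5 DBA/2J arrays (red, upper row of each gene) and the 5 C57BL/6J arrays (blue, lower row), with a line over the range; genes are ordered by their lowest same-week ratio and the dotted line is a signal of 16. The colours do not overlap for any of the 25 genes, which the choice of genes favours, and 8 genes lie wholly left of the dotted line in C57BL/6J.

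In every one of the 25 genes the lowest DBA/2J signal lay above the highest C57BL/6J signal. This held for 1.12% of all 18193 genes, and nothing is read from it here because the rule used the same difference. The genes differed among themselves in how low the C57BL/6J signal was. It was under 16 on all 5 arrays for 8 genes, on some arrays for 10 and on none for 7. The deposited table holds no detection calls, so it cannot be told whether a signal of this size lies above background, and the added 16 makes the ratios of such genes smaller than those of the signals. The rule itself asks for a DBA/2J signal of at least 16, and the medians of the DBA/2J arrays were 11.3 to 15.9. That none of the 25 genes fell below the median probe set on a DBA/2J array was therefore fixed by the rule. The median same-week ratio per gene ran from 2.68 to 31.4 and was 4 or more in 12 genes. Signals are given in the order 0, 1, 4, 12 and 21 weeks throughout. The brightness of different probe sets does not rank the transcripts by abundance.

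The highest ratios were those of Ctse, which codes for cathepsin E, an aspartic protease of the endosomal compartment best known from stomach and immune cells. Ctse had signals of 644, 1058, 1441, 1332 and 1806 in DBA/2J, against 17.6, 29.7, 30.4, 21.8 and 32.2 in C57BL/6J. The ratios were 19.6, 23.5, 31.4, 35.6 and 37.8, and the groups were far apart at every week. After quantile normalisation the Ctse difference was 4.38, 4.86, 5.18, 4.92 and 5.23 on the log2 scale, so the order of the later weeks depends on the scaling. A second Ctse probe set, of a kind that can bind several transcripts, read 453, 762.4, 475, 323 and 551 in DBA/2J, against 68.4, 318, 138, 77.5 and 154 in C57BL/6J. There the difference was smaller, with a ratio of means of 3.17, and the C57BL/6J signal of week 1 was higher than that of the other C57BL/6J weeks.

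Cap1 and Fmn2 code for proteins that act on actin filaments. Cap1, the cyclase-associated protein that helps to take filaments apart and to recycle actin monomers, had signals of 224, 348, 384, 412 and 462 in DBA/2J, against 16.6, 16.8, 15.8, 16.2 and 17.9 in C57BL/6J. The C57BL/6J values spanned only 15.8 to 17.9, while the DBA/2J values were higher at each later week, as was the brightness of the DBA/2J arrays (56.9, 68.9, 71.1, 82.9 and 83.8). On the normalised log2 scale Cap1 in DBA/2J read 8.31, 8.63, 8.69, 8.57 and 8.76, lowest at week 0 with no steady order after it. The same-week ratio was 7.34, 11.1, 12.6, 13.3 and 14.1. Its other probe set gave 218 ± 54.6 in DBA/2J and 7.32 ± 0.862 in C57BL/6J (SD, 5 arrays each), so both Cap1 probe sets showed a ratio of means of 10 or more (11.69 and 10.03). Fmn2, a formin that nucleates unbranched filaments, had signals of 42.6, 49.5, 61.4, 36.7 and 74.5 in DBA/2J, against 7.92, 7.99, 5.604, 9.96 and 6.94 in C57BL/6J. Fmn2 was the member closest to the threshold, at a lowest ratio of 2.03 at week 12, and after quantile normalisation that week's difference, 0.95 on the log2 scale, was below the threshold.

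A further set is tied to interferon responses and intracellular signalling. Xaf1, an interferon-inducible gene whose protein binds the apoptosis inhibitor XIAP, had signals of 135, 327, 253, 258 and 279.6 in DBA/2J, against 5.34, 5.15, 11.2, 8.44 and 8.09 in C57BL/6J. The DBA/2J values were all above 100 and the C57BL/6J values all below 16. Ifi202b, an interferon-inducible member of the p200 family of DNA-binding proteins, had 50.2, 122, 76.8, 90.9 and 112 in DBA/2J, against 0.155, 2.33, 3.63, 0.217 and 0.3497 in C57BL/6J, read by a probe set that can bind related transcripts. Its C57BL/6J signals were all below 4. Pik3ap1, an adaptor that links B cell and Toll-like receptors to phosphoinositide 3-kinase, read 351, 764, 634, 721 and 677 in DBA/2J, against 48.2, 84.9, 86.4, 55.8 and 80.97 in C57BL/6J. Rassf4, a Ras-association domain protein, had 222, 335, 374, 536 and 462 in DBA/2J, against 14.9, 41.7, 109, 21.8 and 30.00 in C57BL/6J. Its C57BL/6J value of week 4 stood above the other 4, and the ratio at that week, 3.13, was its lowest, against 14.6 at week 12. Its 5 DBA/2J values lay above all 5 of C57BL/6J, which the choice of genes favours. The summed signal of 13 macrophage markers was 3299 in DBA/2J and 18197 in C57BL/6J at week 4. It was 2821 to 5189 over all DBA/2J arrays and 2489 to 18197 over all C57BL/6J arrays. The next highest C57BL/6J sum, 10457, came at week 21, where Rassf4 read 30.00, below the 41.7 of week 1 (sum 8354). The lowest signal of a single marker was 0.779 in DBA/2J (week 1) and 1.18 in C57BL/6J (week 0). Without detection calls it cannot be told whether signals of this size lie above background. The part of these markers in the Rassf4 values was not tested. In RNA of whole liver, fewer cells of a type and less RNA per cell cannot be told apart.

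Membrane and cell-surface proteins made up another set. Corin, a membrane-bound serine protease known for processing the heart's pro-atrial natriuretic peptide, had signals of 78.5, 176, 147, 134 and 152 in DBA/2J, against 2.28, 2.56, 3.81, 2.55 and 9.49 in C57BL/6J. Only the C57BL/6J value of week 21 came near 10, and the DBA/2J values were lowest at week 0. Ntrk2, the receptor tyrosine kinase TrkB for brain-derived neurotrophic factor, read 127, 200.4, 282, 347 and 426 in DBA/2J, against 26.4, 47.6, 54.5, 73.2 and 101 in C57BL/6J. Both strains had a higher Ntrk2 signal at each later week, and the same-week ratio moved only within 3.37 to 4.23. Amn, which with cubilin forms the receptor for vitamin B12 bound to intrinsic factor, had 41.4, 58.1, 59.04, 76.4 and 112 in DBA/2J, against 7.34, 19.05, 7.61, 3.26 and 7.21 in C57BL/6J. Tmem87a, a membrane protein of the Golgi, gave 51.6, 101, 85.7, 108 and 108 in DBA/2J, against 2.68, 0.5500, 8.51, 10.4 and 9.63 in C57BL/6J. Its C57BL/6J signals were all below 16.

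Several members code for enzymes. Tpmt, the methyltransferase that inactivates thiopurine drugs, had signals of 617, 723, 622, 641 and 892 in DBA/2J, against 211, 318, 249, 141 and 241 in C57BL/6J. Every C57BL/6J value was above 100, and the Tpmt ratio was 2.21 to 4.18. Prxl2a, a peroxiredoxin-like redox protein, read 1246, 881, 1000.5, 1338 and 1120.2 in DBA/2J, against 346, 311, 316, 403 and 313 in C57BL/6J, and a second probe set gave 391 ± 130.2 in DBA/2J and 106 ± 13.1 in C57BL/6J. Crym, the thyroid hormone-binding mu-crystallin, which also reduces ketimines, had 62.7, 164, 202, 147 and 328 in DBA/2J, against 7.52, 27.4, 30.3, 15.4 and 29.1 in C57BL/6J. Its DBA/2J value of week 21 stood highest and its week 0 values were the lowest in both strains. Sdr9c7, a short-chain dehydrogenase, read 132, 190.2, 303, 271 and 332 in DBA/2J, against 40.9, 77.5, 36.1, 38.9 and 58.9 in C57BL/6J, and its second probe set had a ratio of means of 3.44.

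Hddc3, a phosphohydrolase related to bacterial stringent-response enzymes, had 77.8, 103, 111, 126 and 101 in DBA/2J, against 0.995, 5.78, 15.9, 14.4 and 16.5 in C57BL/6J. Week 0 of C57BL/6J was its lowest value. Extl1, a glycosyltransferase of the exostosin family, had 51.4, 75.5, 48.4, 46.9 and 68.4 in DBA/2J, against 15.1, 1.92, 10.3, 5.38 and 9.09 in C57BL/6J. Pi4kb, a phosphatidylinositol 4-kinase of the Golgi, gave 29.9, 37.8, 59.1, 78.02 and 54.1 in DBA/2J, against 2.81, 1.07, 9.26, 4.41 and 2.300 in C57BL/6J. Both genes stayed below 16 on every C57BL/6J array.

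Apcs and Mup10 code for proteins that hepatocytes secrete. Apcs, serum amyloid P component, a pentraxin that is a major acute phase protein of mice, had signals of 2912, 2262, 3259, 3688 and 2950.1 in DBA/2J, against 776, 846, 1520.1, 791 and 984 in C57BL/6J. Its lowest ratio, 2.13, came at week 4, when its C57BL/6J signal was highest. Mup10, a lipocalin of the major urinary protein cluster, had 349, 195, 284, 365 and 264 in DBA/2J, against 124, 50.4, 15.2, 113 and 13.3 in C57BL/6J. The C57BL/6J values of weeks 4 and 21 were far below those of the other weeks, and the Mup10 ratio lay between 2.62 and 9.61. The Mup genes are near-identical copies, and a signal named Mup10 may come from several of them.

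The remaining members act in the nucleus or at centrioles, or are little described. Snrnp25, a protein of the minor spliceosome, had signals of 162, 169, 230.1, 369.5 and 308 in DBA/2J, against 18.9, 51.7, 34.2, 22.4 and 13.7 in C57BL/6J. Its ratio was lowest at week 1 (2.73) and highest at week 21 (10.9). Rbm45, an RNA-binding protein, read 90.5, 109.8, 109, 113 and 133 in DBA/2J, against 9.76, 27.1, 18.9, 14.7 and 21.9 in C57BL/6J. Sfi1, a centrin-binding protein of centrioles, had 57.8, 106, 76.4, 82.5 and 87.5 in DBA/2J, against 15.5, 30.4, 18.4, 10.4 and 12.4 in C57BL/6J, and 3 further probe sets for Sfi1 name a second gene as well and were not used. Elobl, an elongin B-like gene, gave 28.5, 31.8, 51.2, 30.1 and 41.5 in DBA/2J, against 1.099, 1.08, 1.21, 1.21 and 1.27 in C57BL/6J. The noncoding D630033O11Rik had 75.8, 82.3, 93.3, 143 and 123 in DBA/2J, against 13.9, 13.1, 15.6, 18.7 and 26.6 in C57BL/6J. In these 5 genes, as in the other members, every DBA/2J value lay above every C57BL/6J value. The rule favours this, which held for 1.12% of all 18193 genes, and nothing is read from it.

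**Figure D2:**
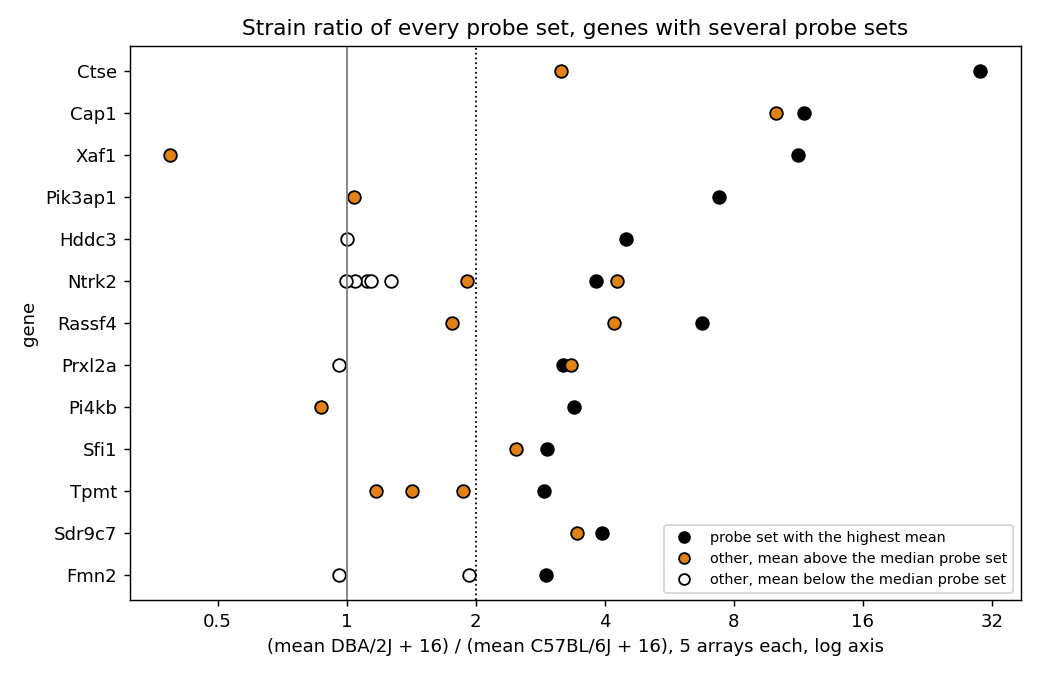
Ratio of the mean DBA/2J signal plus 16 to the mean C57BL/6J signal plus 16 (log axis, 5 arrays per strain) for every probe set of the 13 members with several; black marks the probe set that chose the gene, orange another with a mean above the median of all probe sets, white one below it. For Xaf1 and Pi4kb an orange point lies left of 1, while both Cap1 probe sets lie at 10 or more.

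Other probe sets of the same genes were not used by the rule but come from the same arrays and the same contrast, so they too are described without a test. Of the 25 genes, 12 had 1 probe set and 13 had several, with 24 other probe sets in all. Of these, 15 had a mean above that of the median probe set (13.5), and 9 lay below it. Among the 15, the ratio of means was 2 or more in 7, between 1 and 2 in 6 and below 1 in 2, and 6 met the ratio of 2 at every week.

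The other Xaf1 probe set ran the opposite way at 17.3, 25.2, 14.5, 42.5 and 39.01 in DBA/2J, against 34.5, 119.7, 207, 50.4 and 71.7 in C57BL/6J, a ratio of means of 0.388. Its C57BL/6J signal was highest at week 4 and exceeded that of DBA/2J at every week. For Pik3ap1 the second probe set read 29.2, 94.5, 85.98, 73.1 and 79.2 in DBA/2J, against 32.4, 95.9, 89.4, 49.99 and 77.96 in C57BL/6J, a ratio of means of 1.04. The second Pi4kb probe set had a ratio of 0.871, with 23.9 ± 5.04 in DBA/2J and 29.8 ± 12.8 in C57BL/6J. For Pik3ap1 and Pi4kb the strain difference was seen in 1 probe set and not in the other, and for Xaf1 the probe sets differed in opposite directions. Below the median probe set, the only other Hddc3 probe set had a ratio of means of 1.004, and the other Fmn2 probe sets had 0.958 and 1.93. The 3 other Tpmt probe sets had smaller ratios of means (1.17, 1.42 and 1.86), and in the first of these DBA/2J was lower at week 4, at 65.2 against 86.5 in C57BL/6J. Of the Rassf4 probe sets, 1 other gave 4.201 and another 1.76. Of 7 other Ntrk2 probe sets, 1 gave 4.27, 1 gave 1.905 and the rest lay below the median probe set.

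**Figure D3:**
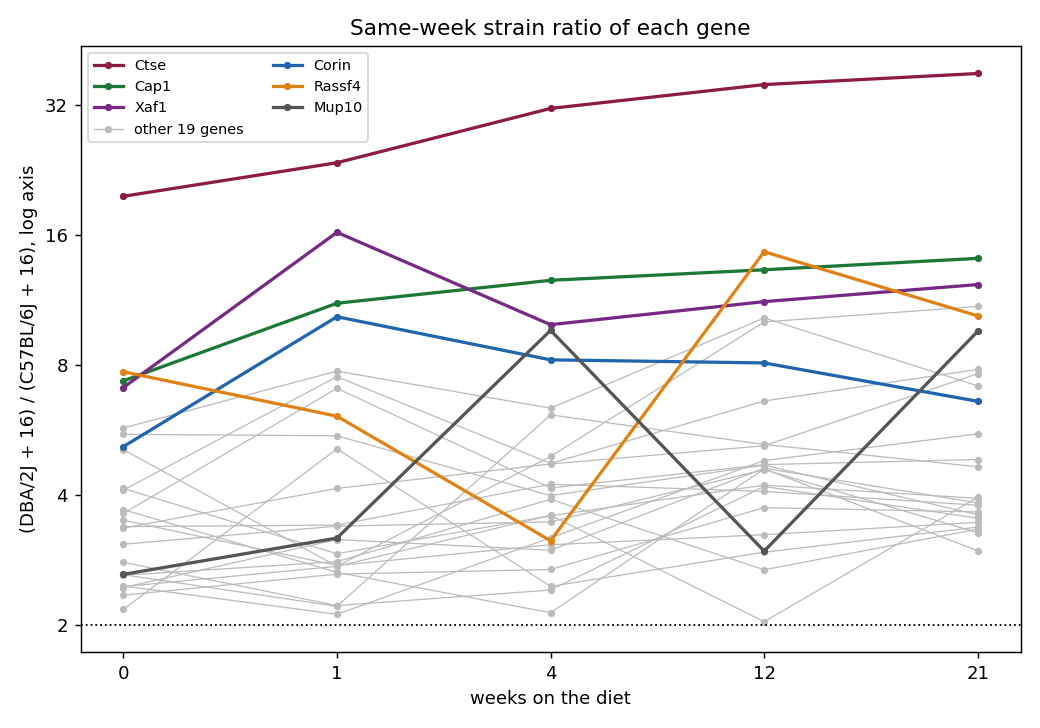
Same-week ratio of each gene (log axis) at 0, 1, 4, 12 and 21 weeks on the diet, the weeks drawn evenly spaced; 6 genes are coloured, the other 19 are grey, and the dotted line is the ratio of 2 that chose the genes. On this deposited scale Ctse and Cap1 lie lowest at week 0 and highest at week 21 (after normalisation Cap1 is highest at week 4), while Rassf4 dips to 3.13 and Mup10 reaches 9.61 at week 4.

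The same-week ratio varied over the weeks. In 15 of the 25 genes the same-week ratio was lowest at week 0 (12 after quantile normalisation), and in 2 it was highest there. The week 0 ratio lay below the median of the 4 fed weeks in 21 genes. After quantile normalisation, which removes the lower overall signal of the week 0 arrays, the count was also 21, though not of the same genes, with a median gap of −0.30 on the log2 scale. The gap is that of 1 pair of arrays and was not tested. The counts in this paragraph cover only the members, were not made over all genes, and use the same signals and weeks as the rule. No change of the strain difference with the diet is read from them. Mup10 stood farthest below, with a fed median of 6.37 and a week 0 ratio of 2.62, followed by Sdr9c7 (4.94 and 2.61), Cap1 (12.9 and 7.34) and Ifi202b (7.05 and 4.098). The fed median was lower than the week 0 ratio in Apcs (2.81 and 3.69), Hddc3 (4.33 and 5.52), Prxl2a (3.15 and 3.49) and Rbm45 (3.75 and 4.14). After normalisation Prxl2a moved to the other side (week 0 minus fed median −0.10 on the log2 scale) and Elobl took its place (0.08). In 16 genes the highest ratio was less than 2 times the lowest. On the deposited scale Ntrk2 and Prxl2a varied least in this way (3.37 to 4.23 and 2.74 to 3.49), and Rassf4 most. After normalisation Prxl2a again varied least, with a span of 0.37 on the log2 scale, and Mup10 most, with 2.06 beside 1.72 for Rassf4.

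The next question was whether the genes changed with the diet itself, which the rule did not use. Fed arrays were set against week 0 arrays in limma, with strain as a term, on quantile-normalised log2(signal + 16) values. The fit covered the 11086 genes whose mean lay above the median of all probe sets' means, and all 25 members were among them, though some passed only through their DBA/2J signal. None of the 25 passed at an adjusted p of 0.05, where 0.307% of all genes were called higher and 0.28% lower in fed livers. At an unadjusted p below 0.05 there were 5 of the 25 and 1931 of the 11086. The median change of the members was 0.09 on the log2 scale, beside 0.01 for all genes tested. The pooled change averages both strains, and members near the floor in C57BL/6J enter it with those low values. Xaf1 averaged 0.53 in DBA/2J and 0.05 in C57BL/6J. The count of 0 is therefore partly set by how the genes were chosen and does not show that they kept their level on the diet. With 1 week 0 array per strain, a change within DBA/2J alone was not tested.

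Crym had the largest positive difference, at 0.81 ± 0.22 (SE, 8 fed and 2 week 0 arrays, adjusted p = 0.112), and lay above its week 0 value on all 4 fed arrays of both strains. Ntrk2 did so too (0.62 ± 0.26, adjusted p = 0.259), with 0.21 when its probe sets were averaged. Mup10 lay furthest the other way (−1.35 ± 0.49, adjusted p = 0.199), with −0.78 without the C57BL/6J week 0 array and −1.91 without the DBA/2J one. The Mup10 change was −0.88 on the deposited scale and −1.65 with a smaller added constant of 1.05. Prxl2a differed by −0.55 ± 0.14 (adjusted p = 0.0956), and by −0.13 on the deposited scale. Both genes were below week 0 on all fed arrays after normalisation, but in the deposited signals Mup10 in DBA/2J and Prxl2a in both strains were above week 0 at week 12. Extl1 differed by −0.48 ± 0.20 (adjusted p = 0.244), with −0.74 without the DBA/2J week 0 array, −0.23 without the C57BL/6J one, −0.16 on the deposited scale and −1.02 with the smaller constant of 1.05. Without the C57BL/6J week 12 array Prxl2a passed (adjusted p = 0.0373), and over all alternatives run its adjusted p ranged up to 0.487. Cap1 differed by 0.02 ± 0.14 (adjusted p = 0.964), with its normalised DBA/2J values above and its C57BL/6J values below those of week 0.

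The diet result depends on how the arrays are scaled. At the authors' own scale the median of all genes shifted by 0.42 in fed livers. There 4587 genes were called higher and 46 lower, against 34 and 31 after quantile normalisation, and 8 members were called higher (Crym, Ctse, Hddc3, Ntrk2, Pik3ap1, Rassf4, Tmem87a and Xaf1). With median centring 98 genes were higher and 30 lower, the median shifted by 0.12, and 0 members passed. The count of all genes called, 65, was 0 without the DBA/2J week 0 array, 2 without the C57BL/6J one, 25 without DBA/2J week 4 and 32 without DBA/2J week 21.

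**Figure D4:**
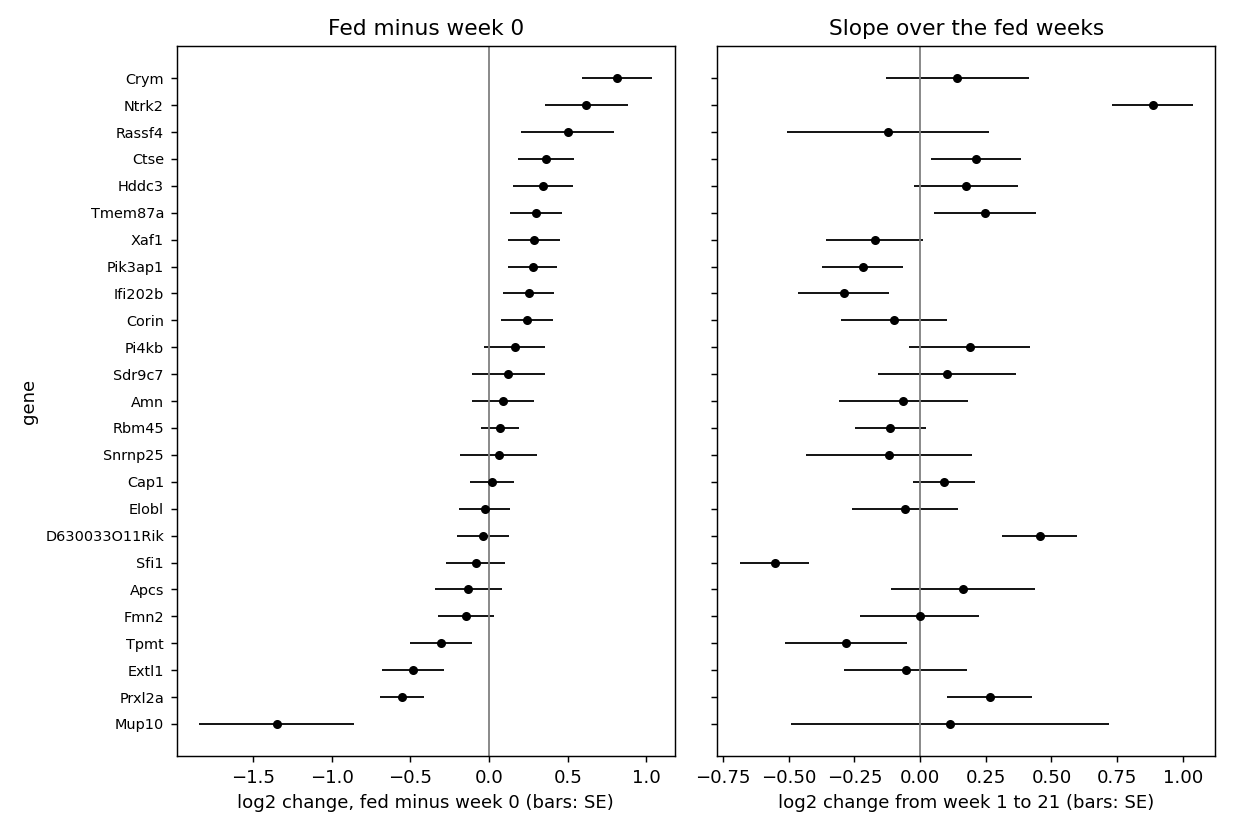
Log2 change of each of the 25 genes, ordered by the left panel, with bars of 1 SE: fed minus week 0 over 10 arrays (left), and the change from week 1 to 21 given by the slope over the 8 fed arrays (right), each with strain as a term. No point passed at an adjusted p of 0.05; Crym and Mup10 lie at the ends of the left panel and Ntrk2 and Sfi1 at the ends of the right one.

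Over the fed weeks, a slope on log2(week) with strain as a term was fitted to the 8 fed arrays. limma called 0 of the 11086 genes (0% higher and 0% lower), and so 0 of the 25, with 524 genes and 3 members at an unadjusted p below 0.05. The largest member slope was that of Ntrk2, which amounted to 0.88 ± 0.15 on the log2 scale from week 1 to week 21 (SE, adjusted p = 0.971). Its signal was higher at each later fed week in both strains, on the deposited and on the normalised scale. D630033O11Rik had 0.46 ± 0.14 and Sfi1 −0.55 ± 0.13 (adjusted p = 0.971 for both).

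Related genes were examined to see whether the partners of the marker genes differed between the strains as well. They were tested in limma over all 11086 genes with week as a block, in which 4.04% of genes were called higher and 4.13% lower in DBA/2J, or 448 and 458 genes. On the deposited scale the calls were 203 higher and 379 lower. Without the DBA/2J or C57BL/6J array of week 12 there were 451 and 450 calls, and without those of week 21 there were 410 and 414, beside 906 with all arrays. With week as a block, leaving out 1 array also takes the other strain's array of that week out of the strain estimate. The paired counts are therefore not separate checks. Of 18 tested actin turnover genes other than Cap1, 2 were higher and 2 were lower in DBA/2J, with a median of −0.15 beside 0.01 for all genes. The profilin genes Pfn1 (1.67 ± 0.20, SE, 5 arrays per strain, adjusted p = 0.0021) and Pfn2 (1.20 ± 0.13, adjusted p = 0.00137), whose proteins load actin monomers with ATP, were the higher ones. Pfn1 missed the group narrowly, with a lowest same-week ratio of 1.93. Dstn, an actin-depolymerising factor (−1.23 ± 0.08, adjusted p = 7.81e-05), and Actr3, a subunit of the Arp2/3 complex (−0.91 ± 0.15, adjusted p = 0.0107), were lower. Of the cell type lists, 0 genes were called higher in DBA/2J. Called lower were 0 of 12 macrophage markers (median −0.70), 2 of 10 stellate, 1 of 9 endothelial, and 0 of the 12 hepatocyte, 4 lymphocyte, 3 blood and 2 cholangiocyte markers tested. Their part in the differences of the listed genes was not tested. In the diet and trend fits 0 genes of any list passed.

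Of 5 tested genes of natriuretic peptide handling other than Corin, 0 were higher and 1 was lower in DBA/2J. This was Mme, the peptidase neprilysin that degrades these peptides (−2.06 ± 0.36, adjusted p = 0.012). The convertase gene Furin did not pass (0.10 ± 0.09, adjusted p = 0.566). The peptide genes Nppa, Nppb and Nppc had signals of at most 14.1 on any array and were below the filter. Of 13 tested RASSF, MST and Hippo genes other than Rassf4, 1 was higher and 1 lower. Rassf6 was higher by 0.56 ± 0.13 (adjusted p = 0.0332), which did not pass when an array of week 0, 1, 4 or 12 was left out (adjusted p up to 0.0907), at the authors' own scale (0.0695) or with no filter (0.0582). The kinase gene Lats2 was lower (−0.86 ± 0.10, adjusted p = 0.00159) and did not pass when a gene's probe sets were averaged (−0.25 ± 0.08, adjusted p = 0.113).

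The members lay on 14 chromosomes in the RefSeq annotation. Chromosomes 1 and 11 held 4 each (16% of the members, against 5.86% and 8% of the measured genes), and chromosome 4 held 3. On chromosome 1, Apcs, Ifi202b and Fmn2 followed each other closely, with 11 measured genes between Apcs and Ifi202b and 1 between Ifi202b and Fmn2. Of these 12 genes, 0 had a same-week ratio of 2 or more at every week and 1 had a ratio of 0.5 or less at every week. That gene, Mndal, another p200 family member, is named after its values were seen and averaged 5.38 in DBA/2J and 309 in C57BL/6J. The p200 genes Ifi213, Ifi209, Ifi207, Ifi204 and Ifi203 had ratios below 1 at every week, at most 0.638, 0.894, 0.939, 0.856 and 0.876. Cadm3 had ratios of 1.16 to 2.12, and the other genes between lay on both sides of 1. These genes, too, are named after their values were seen. No other pair of members had fewer than 121 measured genes between them.

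The threshold of 2 cuts through a run of similar genes. Just inside it lay Apcs, Amn and Fmn2, with lowest ratios of 2.13, 2.11 and 2.03. Just outside lay Adgrv1 (1.97), the noncoding 9030622O22Rik (1.95) and Pam (1.94), and their mean signals were 94.3, 113 and 88.5 in DBA/2J, against 31.2, 26.5 and 28.3 in C57BL/6J.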

How the data were processed

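Each array's deposited column holds a linear intensity per probe set, made by the authors with the GCOS software per the submitters' processing notes. The version, the summary method and the scaling are not given in the sources used here. RNA was extracted with Trizol, per the labels' protocols. Of 45101 probe sets, 64 controls were left out, 34945 had a single symbol, 932 had several and 9160 had none. Symbols came from GEO's platform annotation, updated through gene identifiers in RefSeq (GRCm38.p6).

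Members were selected on the deposited signals. For the tests the arrays were quantile normalised, 16 was added and log2 was taken, and genes were kept where the mean exceeded the median probe set's. limma 3.58.1 in R 4.3.3 (lmFit, eBayes with trend) was used with Benjamini-Hochberg adjustment over all 11086 genes and a threshold of 0.05; the fits left 4 (strain), 7 (diet) and 5 (trend) residual degrees of freedom. The number of arrays limits the precision. Figures were drawn with matplotlib 3.10.9.

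The members, lists and tests were chosen with earlier results of these data known. Values were named for the 3 markers, the 12 members with the highest lowest ratio, the 5 with the highest DBA/2J mean, members passing the diet or trend test, the 3 genes on each side of the threshold, up to 4 members with another probe set below a ratio of 1, the 4 farthest above and below at week 0, and neighbouring members. The remaining members, and genes close to passing a test, were added after their values were seen. Alternatives changed the constant, the scaling, the filter, the probe set, the variance model, the block and the time scale, and left out each array.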

Additional observations from a re-analysis of the deposited data

Results flagged for a closer look

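In fed C57BL/6J livers the Prxl2a signal of week 12, 403, stood apart from those of the other 3 fed weeks, 311, 313 and 316. Of 50 sets of 4 fed arrays examined in this way (25 genes in 2 strains), this was the only one whose gap exceeded the 95% critical value, and chance gives about 1 in 20 such results. It was judged on deposited signals. On the normalised log2 scale the gap was 0.66 of the range, under the critical value.

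On the normalised log2 scale, in Cap1 all 4 fed DBA/2J arrays lay above week 0 and all 4 fed C57BL/6J arrays below it. The difference between the mean changes was 0.67 (0.35 in DBA/2J and −0.32 in C57BL/6J). In Rbm45 the strains moved the opposite way round, with −0.12 in DBA/2J and 0.26 in C57BL/6J, a difference of −0.38. Each rests on 1 week 0 array per strain, and neither difference was tested. The deposited C57BL/6J signals of Cap1 were 15.8 to 17.9 in the fed weeks, on both sides of the 16.6 of week 0. The opposite directions of Cap1 therefore hold only after normalisation. The deposited signals of Rbm45 were higher in all fed weeks than at week 0 in both strains (109 to 133 and 90.5 in DBA/2J). Its opposite directions, too, hold only after normalisation.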

How the results depend on the processing

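The number of genes that the rule selects moved from 25 to 53 with 1 added in place of 16, to 13 with 64, to 68 at a ratio of 1.5 and to 12 at a ratio of 3. Quantile normalisation and median centring each gave 29, of which 24 were shared with the 25 (Fmn2 was lost under quantile normalisation), and the median of a gene's probe sets gave 23, of which 20 were shared. Leaving out 1 week's pair gave 26 to 38 genes, the most without week 1.

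For the diet, 65 genes were called in all. This was 4633 at the authors' own scale, 128 with median centring and 37 with the mean of a gene's probe sets, and 0 to 82 with 1 array left out. The members called were 0, and 8 at the authors' own scale, and 0 or 1 (Prxl2a, without C57BL/6J week 12) with 1 array left out. The trend gave 0 genes under every alternative run, including a slope on week. In the strain fit 906 genes were called, 582 at the authors' own scale and 410 to 727 with 1 array left out. Without week as a block it was 812. Lower signals, such as those of the 8 members under 16 on all C57BL/6J arrays, limit what can be said of the size of a ratio.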
